A study of Mus musculus with 55 samples.

Results

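The comparison described here is the binding of the acetyltransferase p300 in mouse bone marrow-derived macrophages (BMDM) after 2 h of lipopolysaccharide (LPS), set against vehicle. It rests on 4 of the 55 samples of the series: the p300 chromatin immunoprecipitation (ChIP-seq) libraries LPS2h replicate 1 and replicate 2, and, as vehicle, PBS2 replicate 2 and PBS6 replicate 2 pooled as 1 group (n = 2 and n = 2). Both vehicle libraries are of replicate 2, and the p300 vehicle libraries of replicate 1 were not used here. Marrow cells were grown in L-cell conditioned medium as a source of M-CSF, kept overnight in 0.5% serum, and given LPS at 10 ng/ml or PBS. All p300 samples were crosslinked with disuccinimidyl glutarate and then formaldehyde, according to the labels' protocols. LPS replicate 1 is labelled C57BL/6, with a mixture of Millipore and Diagenode p300 antibodies; the replicate 2 labels name neither strain nor antibody, and give no age or sex. Nothing in the labels says whether replicates came from separate animals or cultures, so p-values measure the spread between these libraries, which may be technical. The other p300 libraries, used here to estimate the spread, were given LPS for 6 h or 3'-sialyllactose (3SL, a milk sugar, 100 µg/ml) with or without LPS for 2 h or 6 h.

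LPS, a component of the outer membrane of Gram-negative bacteria, is sensed by TLR4, which signals to NF-κB (a family of dimers with p65, p50, c-Rel and others) and, through TRIF, to IRF3 and type I interferon. p300 has no sequence preference of its own: it is brought to enhancers and promoters by transcription factors, acetylates histones there, including lysine 27 of histone H3 (H3K27ac), and serves as a mark of active enhancers. In macrophages, PU.1, C/EBP and AP-1 factors hold enhancers open at rest, and NF-κB and IRF factors act on many of the same sites after TLR4 is engaged.

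Binding was read in 97113 windows of 200 bp centred on open chromatin (ATAC) peaks of macrophages, given vehicle or the TLR4 ligand Kdo2-lipid A in another study. Values are tags per window, rescaled as described below and called normalised tags; 52527 windows passed the filter on low tags. The LPS libraries held 15029913 and 5106329 tags, and the vehicle libraries PBS2 and PBS6 3199270 and 7106052. The windows took 9.42% of the tags of LPS replicate 1 and 22.1% of those of LPS replicate 2, against 21.8% in PBS2 and 20.1% in PBS6; an input library had 4.77%. The low share of LPS replicate 1 was common to the 6 p300 libraries of replicate 1 (6.12% to 9.42%), whereas the 8 of replicate 2 ran from 20.1% to 27.5%. Macrophage genes carried p300 in every library: summed over 9 of 9 listed markers, among them Csf1r, Cd68, Adgre1 and Spi1, the level was 5405 and 3628 normalised tags with LPS, against 3861 and 3517 with vehicle, and none of the 9 passed the test. Many markers of other lineages had no level to test, among them Cd3e, Lck, Pax5, Ly6g, Col1a1 and Gata1. Summed T cell markers (3 of 7 tested) stood at 76.05 and 94.3 normalised tags with LPS, against 56.98 and 90.9 with vehicle. Sums run over unlike numbers of genes and windows, so their sizes cannot be compared between cell types. Per window, mean vehicle levels of macrophage markers ran from 27.9 (Spi1) to 185 (Cd68). T cell markers ran from 2.86 (Cd8a) to 39.8 (Cd3d, 1 window), and Ms4a1, a B cell marker, had 77.9. Summed neutrophil markers (4 of 6 tested) stood at 87.1 and 69.7 normalised tags with LPS, against 43.8 and 49.5 with vehicle. Summed dendritic cell markers (5 of 5 tested) stood at 560.0 and 653 normalised tags with LPS, against 576 and 443 with vehicle. For B cell, fibroblast, erythroid and epithelial markers, 2 of 6, 1 of 5, 2 of 5 and 3 of 4 were tested and none was called. The B cell sum was not low, at 477 and 221 normalised tags with LPS, against 548 and 436 with vehicle. Most of it lay at Ms4a1, with 528 and 406 in vehicle, near Csf1r at 519 and 402. The 1 fibroblast gene, Pdgfrb, a neighbour of Csf1r, had 780 and 470 with LPS, against 353 and 383 with vehicle. Erythroid sums were 77.4 and 69.7 with LPS, against 127 and 136 with vehicle, and epithelial sums 118 and 133, against 186 and 140. The neutrophil gene Camp and the dendritic cell gene Xcr1 were the markers called, both higher with LPS. The part of other cell types in the results below was not tested.

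The 8 windows with the largest rise in p300 with LPS, 1 per gene, were taken from those that passed the test below. Those of Alpk2 and Ttc39c are not printed, and the other 6 follow. They are shown from mm10 as the plus strand over the 201 bases of each window. The windows lie near Socs3 (chr11:117977893-117978093, intergenic, 8.63 kb from the gene's start), in intron 1 of Bcl2a1a (chr9:88960018-88960218), in intron 4 of Ell2 (chr13:75754432-75754632), at the promoter of Acod1 (chr14:103046983-103047183), in intron 1 of Plagl2 (chr2:153238022-153238222) and 97.1 kb from the start of Cebpd, inside an intron of another gene (chr16:15984296-15984496). Capitals mark letters that match, on either strand, a κB site (GGANTTTCC, or its degenerate 10-letter form), AP-1 (TGANTCA), ISRE (GAAANNGAA), C/EBP (TTGCNNAA) or PU.1 (GAGGAAG). The Socs3 window holds a degenerate κB, a PU.1 and a C/EBP match. The Ell2 window holds an AP-1, the Acod1 window a C/EBP and the Plagl2 window a PU.1 match. No full match was found in the Bcl2a1a and Cebpd windows. The Bcl2a1a window ends in gggaaattc, which lacks only the last letter of a κB match. The window's edge could therefore hide a κB site there.
Socs3: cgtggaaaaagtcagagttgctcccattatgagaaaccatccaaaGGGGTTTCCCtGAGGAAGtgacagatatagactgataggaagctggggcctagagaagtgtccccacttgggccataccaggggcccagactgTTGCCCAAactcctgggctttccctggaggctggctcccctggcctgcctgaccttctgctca
Bcl2a1a: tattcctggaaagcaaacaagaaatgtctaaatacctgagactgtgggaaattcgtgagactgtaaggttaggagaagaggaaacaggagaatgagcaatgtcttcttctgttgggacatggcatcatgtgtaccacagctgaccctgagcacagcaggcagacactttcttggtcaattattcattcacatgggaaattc
Ell2: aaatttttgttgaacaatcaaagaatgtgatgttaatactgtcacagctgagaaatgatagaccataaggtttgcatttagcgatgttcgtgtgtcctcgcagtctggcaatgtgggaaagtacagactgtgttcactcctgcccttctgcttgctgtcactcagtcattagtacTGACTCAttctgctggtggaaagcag
Acod1: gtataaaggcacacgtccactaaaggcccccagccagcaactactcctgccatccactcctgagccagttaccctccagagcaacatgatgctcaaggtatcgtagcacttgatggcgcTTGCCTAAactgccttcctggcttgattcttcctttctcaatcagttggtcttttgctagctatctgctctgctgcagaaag
Plagl2: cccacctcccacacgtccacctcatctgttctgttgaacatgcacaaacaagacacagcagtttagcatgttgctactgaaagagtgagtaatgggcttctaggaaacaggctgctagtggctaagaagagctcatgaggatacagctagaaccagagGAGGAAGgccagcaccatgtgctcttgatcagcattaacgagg
Cebpd: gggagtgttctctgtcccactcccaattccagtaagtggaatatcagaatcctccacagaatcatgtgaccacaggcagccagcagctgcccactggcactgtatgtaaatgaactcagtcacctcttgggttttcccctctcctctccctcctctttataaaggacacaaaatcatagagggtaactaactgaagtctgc
Slc7a13 (chr4:19856154-19856354) and Eps8 (chr6:137473006-137473206) are nearest to the intergenic windows with the largest fall, at 37.5 and 46.8 kb from the genes' starts; only PU.1 letters matched, in the Eps8 window.
Slc7a13: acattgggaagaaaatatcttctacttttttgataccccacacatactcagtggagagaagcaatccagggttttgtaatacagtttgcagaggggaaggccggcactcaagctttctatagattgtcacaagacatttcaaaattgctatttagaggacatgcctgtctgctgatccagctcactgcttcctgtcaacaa
Eps8: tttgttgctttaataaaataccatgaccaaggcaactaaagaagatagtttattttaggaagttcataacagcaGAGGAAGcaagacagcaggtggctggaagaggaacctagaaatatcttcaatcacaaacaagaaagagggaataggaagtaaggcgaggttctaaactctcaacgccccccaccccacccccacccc
The 3 windows with the largest rise that hold GGANTTTCC were chosen after their values were seen, as examples of κB letters in place. They lie 62.96 kb from the start of Tnfaip3 (chr10:19078268-19078468, intergenic), 4.48 kb from that of Ccl5 (chr11:83534901-83535101, intergenic) and 5.70 kb from that of Mthfsl (chr9:88725393-88725593, in an intron of another gene). Read on the minus strand, the Bcl2a1a window begins almost letter for letter as the last part of the Mthfsl window, from GAATTTCCC on. The Bcl2a1a and Mthfsl windows are thus not separate examples of windows without and with κB letters.
Tnfaip3 κB: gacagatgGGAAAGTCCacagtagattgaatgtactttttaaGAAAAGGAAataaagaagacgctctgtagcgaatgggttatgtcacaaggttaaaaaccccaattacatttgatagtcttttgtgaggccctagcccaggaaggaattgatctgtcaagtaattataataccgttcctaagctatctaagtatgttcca
Ccl5 κB: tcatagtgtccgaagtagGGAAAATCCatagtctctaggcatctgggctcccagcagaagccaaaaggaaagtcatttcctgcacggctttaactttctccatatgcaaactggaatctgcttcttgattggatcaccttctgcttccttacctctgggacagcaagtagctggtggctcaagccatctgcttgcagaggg
Mthfsl κB: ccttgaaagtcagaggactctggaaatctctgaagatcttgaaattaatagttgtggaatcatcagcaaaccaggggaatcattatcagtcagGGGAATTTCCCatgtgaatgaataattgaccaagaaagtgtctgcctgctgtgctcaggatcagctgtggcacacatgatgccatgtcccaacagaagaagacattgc

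After 2 h of LPS, p300 was higher at 2136 windows and lower at 454 of the 52527 tested, 4.07% and 0.864% (limma's trended test on log2(normalised tags + 1), Benjamini-Hochberg adjusted p under 0.05; 9557 windows had an unadjusted p under 0.05). The median called rise was 3.64 on the log2 scale, with a median level of 71.2 normalised tags with LPS, against 4.67 with vehicle; the median called fall was -2.77, with 11.04 with LPS, against 76.5 with vehicle. In each of the 2590 called windows, both LPS libraries lay on the same side of both vehicle libraries. Among all 52527 windows tested, they lay above both vehicle libraries in 14006 and below both in 12110. The called windows were picked by the test, so their separation adds no support. Of the windows that rose, 328 (15.4%) had 0 tags in both vehicle libraries, whereas 11 (2.42%) of those that fell had 0 tags in both LPS libraries. Over all windows tested, 1.69% and 0.175% had 0 tags in those pairs of libraries. In bulk chromatin, binding in more cells and more binding per cell cannot be told apart.

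The counts move with the libraries and with the scaling. Leaving out LPS replicate 1, which leaves replicate 2 libraries in both groups, gave 515 higher and 214 lower. Leaving out LPS replicate 2 gave 770 higher and 106 lower, the PBS2 library 636 higher and 28 lower, and the PBS6 library 1386 higher and 105 lower. With the replicate number as a block there were 3794 higher and 1719 lower, among them all 2590 windows called without it. On the authors' own scaling to mapped tags, which does not correct for the share of tags in the windows, the median change over all windows was -0.68, and the counts were 66 higher and 2 lower.

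**Figure D1:**
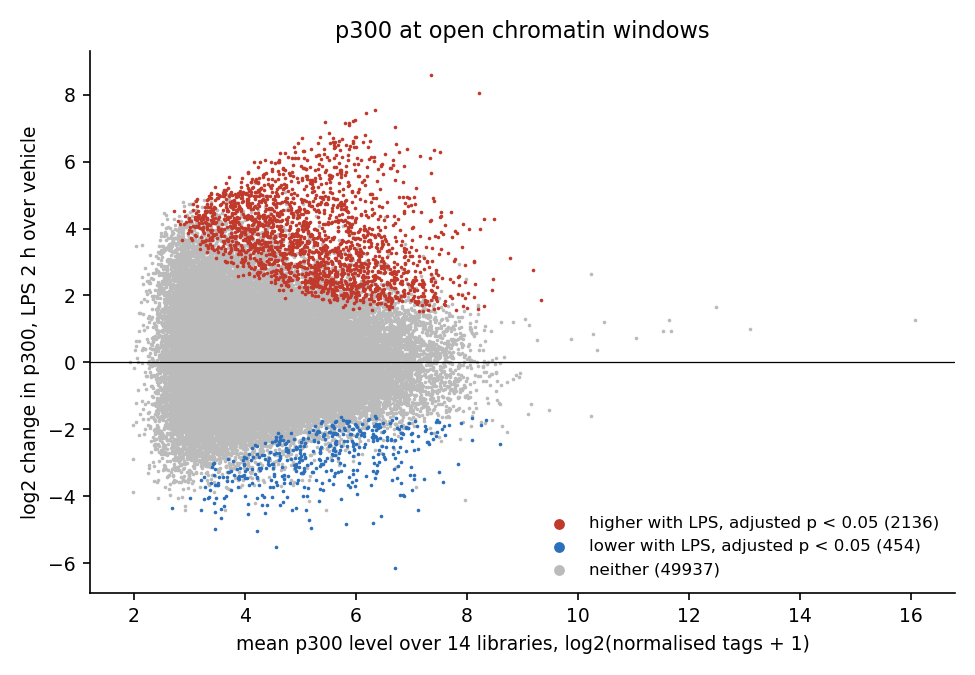
Each point is 1 of 52527 windows, with its mean p300 level over 14 libraries on the horizontal axis (log2 of normalised tags + 1) and the log2 change, LPS 2 h over vehicle, on the vertical axis. The 2136 windows called higher reach changes above 8, the 454 called lower reach -6.15, and the bulk of windows is centred near 0 (median 0.03).

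The 12 called windows with the largest rise, 1 per gene, had almost no p300 with vehicle. The window upstream of Socs3, whose product inhibits JAK-STAT signalling, had 919.9 and 465 normalised tags in the LPS libraries (replicates 1 and 2), against 0 and 5.14 in vehicle (PBS2 and PBS6) (log2 change 8.05 ± 0.81 (SE), adjusted p = 6.84e-05). The Acod1 promoter, 71 bp past the start of the gene for the enzyme that makes itaconate, had 201 and 106 normalised tags with LPS, against 0 and 0 with vehicle (log2 change 7.20 ± 0.86 (SE), adjusted p = 1.98e-04). Vehicle libraries had no tag there, which makes Acod1 at least 74.9-fold higher with LPS, with a floor of 3 tags over the vehicle pair. An intron of Ell2, an RNA polymerase II elongation factor, had 203 and 148 normalised tags with LPS, against 0 and 0 with vehicle (log2 change 7.45 ± 0.72 (SE), adjusted p = 6.75e-05). Alpk2, a kinase gene, had the largest change of the called windows, in an intron with 432 and 336 normalised tags with LPS, against 0 and 0 with vehicle (log2 change 8.58 ± 0.90 (SE), adjusted p = 9.12e-05), at least 186-fold higher with LPS. In each of these windows both LPS libraries were high and vehicle was at or near 0.

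The intron of Bcl2a1a, an anti-apoptotic BCL2 relative, had 276 and 124 normalised tags with LPS, against 0 and 0 with vehicle (log2 change 7.54 ± 0.64 (SE), adjusted p = 2.95e-05). Near-identical copies of Bcl2a1 lie close together, and the input library had 0 tags in this window, so reads could be split between copies. The window assigned to Cebpd, a C/EBP factor, had 93.3 and 215 normalised tags with LPS, against 0 and 0 with vehicle, and an intron of Tnip1, whose product binds A20 and restrains NF-κB, had 195 and 102 normalised tags with LPS, against 0 and 0 with vehicle. The remaining windows among the 12 with the largest rise were assigned to Ttc39c, Plagl2 (a zinc-finger transcription factor), Anp32a, Lmo4 (a LIM-only factor) and Ptprj (a receptor tyrosine phosphatase). Their changes ran from 6.84 at Ptprj to 7.25 at Ttc39c. Vehicle held 0 tags in 11 of the 12 windows, and the 12 kept their call in each alternative run.

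**Figure D2:**
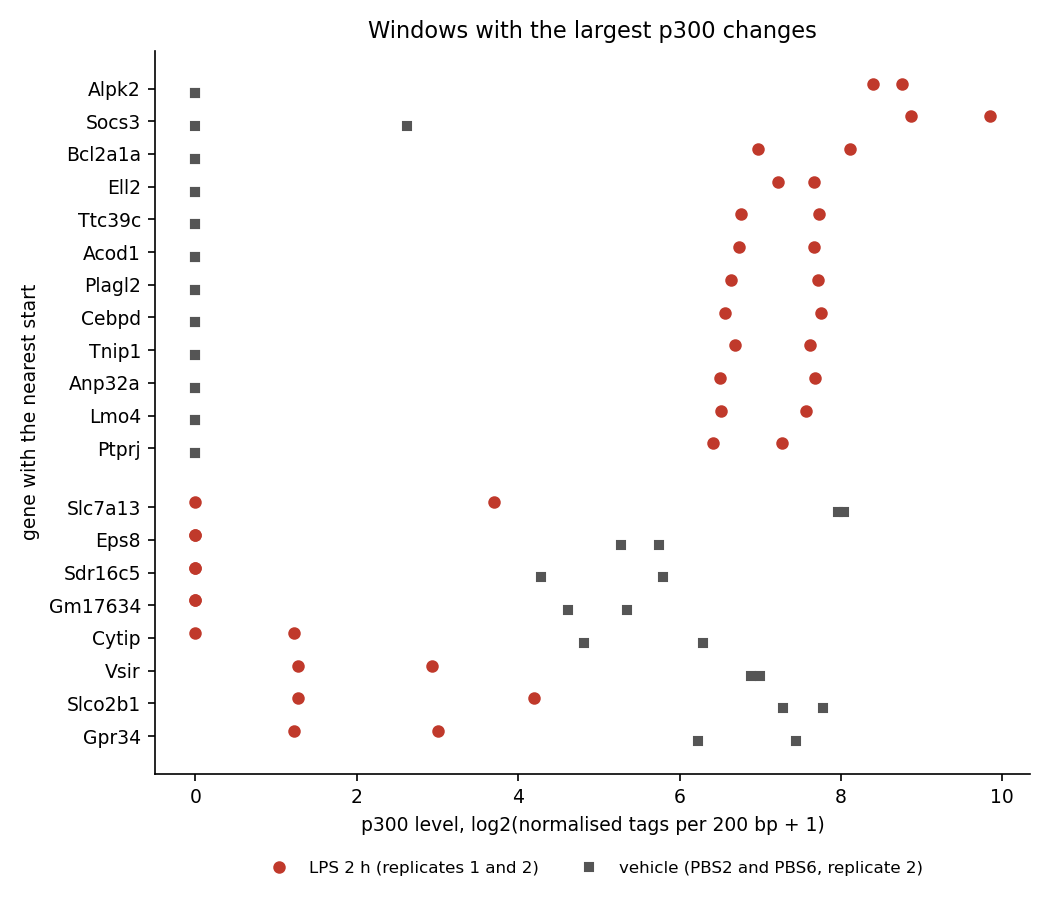
p300 level in each library, as log2 of normalised tags per 200 bp window + 1, for the 12 windows with the largest rise (top) and the 8 with the largest fall (bottom), named by the gene with the nearest start; circles are LPS 2 h (replicates 1 and 2) and squares are vehicle (PBS2 and PBS6, replicate 2). The windows were chosen among those called with separate libraries, so circles and squares do not overlap in any of them. LPS circles lie at 0 in both libraries at Eps8, Sdr16c5 and Gm17634.

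The 8 called windows with the largest fall kept few or no tags after LPS. The window assigned to Slc7a13, an amino acid transporter gene, had 12.00 and 0 normalised tags in the LPS libraries (replicates 1 and 2), against 249 and 261 in vehicle (PBS2 and PBS6) (log2 change -6.15 ± 0.92 (SE), adjusted p = 0.00102). An intron of Vsir, which encodes the immune checkpoint receptor VISTA, had 6.67 and 1.41 normalised tags with LPS, against 117 and 127 with vehicle (log2 change -4.84 ± 0.83 (SE), adjusted p = 0.00266). An intron of Slco2b1, an organic anion transporter, had 17.3 and 1.41 normalised tags with LPS, against 155 and 218 with vehicle (log2 change -4.80 ± 0.93 (SE), adjusted p = 0.00625). The window 57.7 kb from the start of Gpr34, a lysophosphatidylserine receptor, had 1.33 and 7.06 normalised tags with LPS, against 174 and 74.1 with vehicle (log2 change -4.72 ± 1.15 (SE), adjusted p = 0.0236). In these windows both vehicle libraries were well above both LPS libraries, a separation that their choice required. The Eps8 window had 0 tags in both LPS libraries, against 37.7 and 52.5 normalised tags in vehicle, at least 23.1-fold lower with LPS by the same floor; Eps8 caps and bundles actin. The windows of Sdr16c5, Gm17634, Cytip and Gpr34 lost their call without any 1 of the 4 libraries, with changes of -5.04, -4.99, -4.94 and -4.72 in the full set, and Slco2b1 lost it without LPS replicate 2, the PBS2 or the PBS6 library. On the authors' scaling 6 of the 8 falls, those other than Slc7a13 and Eps8, were not called, Vsir among them. Cytip, a cytohesin-binding protein gene, was also not called with edgeR, DESeq2 or a pseudocount of 5.

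Some genes had many called windows. The 2136 that rose were nearest to 1282 genes, of which 857 had 1 such window and 53 had 5 or more. Tnfaip3, which encodes the ubiquitin-editing NF-κB inhibitor A20, had 14 of its 29 tested windows called higher, Socs3 12 of 16, Ccl5 8 of 9, and Peli1, an E3 ubiquitin ligase of the TLR pathway, 9 of 15. The unnamed locus 4930529L06Rik had 14 of 18, and Zc3h12c, of the Regnase family of RNA-binding proteins, 10 of 27. The 454 that fell were nearest to 319 genes. Atp6v0d2, a subunit of the vacuolar proton pump, had 9 of 14 windows called lower, St6gal1, a sialyltransferase, 6 of 12, and the transcription factor gene Mef2a 5 of 26. These genes were picked as those with the most called windows, after the calls were seen, and neighbouring windows share fragments. Over all windows tested 4.07% were called higher and 0.864% lower, shares to set beside these counts and those of genes below.

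The called windows were mostly away from promoters. Promoters held 6.37% of the windows that rose and 3.52% of those that fell, beside 20.5% of all windows tested, and the median distance to the nearest start was 18.5, 29.8 and 11.7 kb. Put the other way, 1.26% of promoter windows and 4.79% of the others were called higher. Median GC content was 47.3% and 46.8%, in windows that rose and fell, beside 49.8% over all tested. Of the authors' peaks, 27.3% of the windows that rose and 81.1% of those that fell shared at least 1 bp with a peak of the sterol receptor LXR, beside 38.7% of all tested. For the sterol factor SREBP the shares were 28.8% and 80.2%, beside 36.03%, and for the deposited p300 list 54.9% and 90.5%, beside 53.7%. These lists come from cells given the LXR agonist GW3965 and not LPS, per the labels, the p300 list included. The sets also differ in p300 with vehicle, with medians of 4.67 in windows that rose and 76.5 in those that fell, beside 15.5 over all tested. The part of this level in the shares was not tested, and the shares are a description with no test.

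NF-κB letters were found in more of the windows that rose than of all windows tested, and in few of those that fell. GGANTTTCC was found in 11.7% of windows that rose (249 of 2136) and 0.220% of those that fell (1 of 454), beside 1.79% of all tested. The degenerate κB form, which overlaps it, was in 21.5% and 0.661%, beside 4.34%, and 26.4% of the 942 windows with GGANTTTCC were called higher, against 3.66% of those without. AP-1 letters were in 28.9% of windows that rose and 17.4% of those that fell, beside 20.9% of all tested. ISRE letters, a pattern read by IRF factors, were in 12.8% and 7.71%, beside 8.46%, and STAT letters (TTCNNNGAA) in 10.5% and 7.05%, beside 6.20%. The order was the other way for PU.1, the lineage factor, with 18.9% and 31.1%, beside 23.1%, and for the E-box CACGTG, with 2.20% and 7.05%, beside 4.47%. C/EBP letters were in 15.9% and 16.7%, beside 12.1%. Away from promoters the κB shares were 11.7% of windows that rose and 0.228% of those that fell, beside 1.94%. A match shows letters, not a bound factor.

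**Figure D3:**
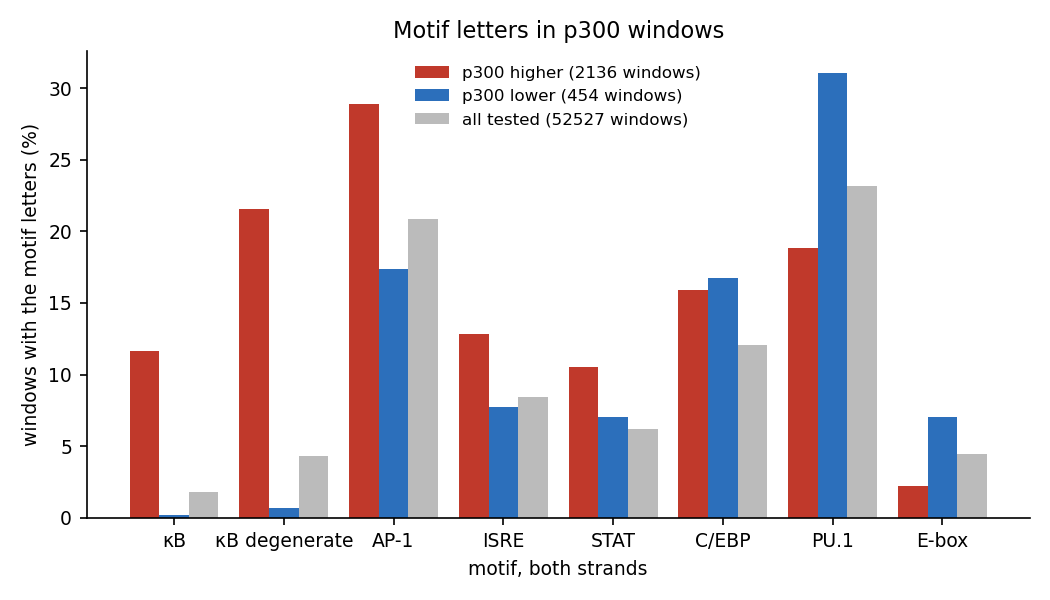
Bars give the share of windows (%) that hold the letters of each motif on either strand, for windows with higher p300 after LPS (2136), lower p300 (454) and all tested (52527). Both κB forms stand highest in the windows that rose, and PU.1 and E-box letters in those that fell.

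H3K27ac was measured in libraries of its own, with 2 of LPS at 2 h and 2 of PBS2 (the treatment label of LPS replicate 1 reads 1 h, its title 2 h). Of the 2130 windows with higher p300 that were tested for H3K27ac (1000 bp around the same centres), 921 (43.2%) were called higher and 0 lower, where the background over all windows tested for both was 4.2% higher and 2.79% lower. Of 453 windows with lower p300, 189 (41.7%) were called lower and 0 higher. The median H3K27ac change was 2.17 and -1.85 in these sets, beside 0.00 over all. At the Socs3 window H3K27ac averaged 153 ± 77.7 normalised tags with LPS and 4.32 ± 1.74 with PBS2 (SD, n = 2 each; log2 change 4.79 ± 0.69 (SE), limma adjusted p = 0.00458). At the Slc7a13 window it averaged 38.3 ± 12.9 with LPS and 569.5 ± 282 with PBS2 (-3.81 ± 0.42, adjusted p = 0.00214). Among the windows named above, H3K27ac was called higher in 8 of 12 and lower in 5 of 8. These shares are from fits without the replicate block, which moved the H3K27ac windows called from 3980 to 17805.

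The same windows were also read in cells given 3SL with LPS and 3SL alone for 2 h (n = 2 each), a contrast added after the data were seen. It shares no library with LPS against vehicle, but its libraries entered the estimate of spread behind the calls. Of the 2136 windows that rose with LPS alone, 684 (32.02%) were called higher with LPS among 3SL-treated cells and 0 lower, beside 1.57% higher and 0.225% lower over all windows. Of the 454 that fell, 71 (15.6%) were called lower and 0 higher. The change was above 0 in 98.5% and 1.54% of these sets, with medians of 2.45 and -1.72. The 12 windows with the largest rise were all called higher there, and 2 of the 8 with the largest fall, Slc7a13 and Vsir, were called lower. These counts are also without the replicate block, which moved the windows called in this contrast from 944 to 3686.

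**Figure D4:**
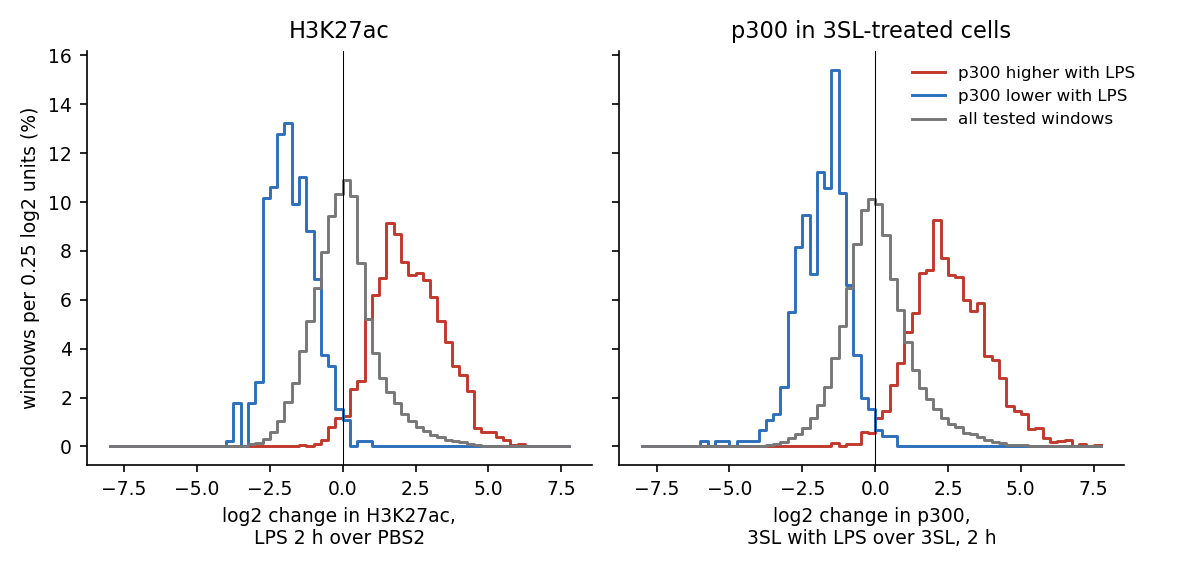
Distributions of the log2 change in H3K27ac, LPS 2 h over PBS2 (left), and in p300 with 3SL and LPS over 3SL alone at 2 h (right), for windows whose p300 rose or fell with LPS and for all tested windows; the vertical axis gives the share of each set per 0.25 log2 units. Windows that rose centre at 2.17 and 2.45, those that fell at -1.85 and -1.72, and all windows near 0.

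Windows within 50 kb of a gene's start were summed to give 1 p300 level per gene. Of 14691 genes tested, 436 rose (2.97%) and 111 fell (0.756%), with a median change over all genes of -0.01. The counts were 100 higher and 45 lower without LPS replicate 1, 230 higher and 33 lower without LPS replicate 2, 98 higher and 9 lower without the PBS2 library and 190 higher and 30 lower without the PBS6 library. With the replicate block they were 1020 higher and 554 lower. The counts of the lists below are to be read beside those of all 14691 genes, in the fit without the block or with it. On the authors' scaling limma called 0 genes (318 had an unadjusted p under 0.05), where the median change was -0.73. Changes below stand relative to a median near 0; on the authors' scaling none of the genes below was called. Of the 54 genes called in the lists below, 17 kept their call with each of the 4 libraries left out in turn: Il1a, Il27, Ccl4, Ccl5, Cxcl10, Rel, Nfkb1, Tnfaip3, Socs3, Cish, Peli1, Gbp5, Nos2, Acod1, Ptges, Sod2 and Ass1. The others lost it in at least 1 of these fits, 16 of them in all 4, among these Il1b, Il12b, Nfkbiz, Birc3, Isg20, Ifih1, Cd274, Slc7a11, Junb and Zeb2.

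Of 20 cytokine genes 10 rose and 0 fell, beside 2.97% and 0.756% of all genes, with a list median of 1.65; with the replicate block 14 rose. Il1a, which encodes the alarmin interleukin-1α, had 1409 and 794 normalised tags with LPS, against 87.7 and 73.8 with vehicle (log2 change 3.70 ± 0.35 (SE), adjusted p = 1.41e-04), and all 6 of its windows were called. Il1b, its inflammasome-processed relative, had 996 and 794 normalised tags with LPS, against 248 and 303 with vehicle (log2 change 1.69 ± 0.42 (SE), adjusted p = 0.0376). Both LPS libraries were above both vehicle libraries at each gene, which held for 3623 of all 14691 genes. Il10, the anti-inflammatory cytokine, had 543 and 600.0 normalised tags with LPS, against 153 and 192 with vehicle (log2 change 1.73 ± 0.32 (SE), adjusted p = 0.00713), and Il12b, the shared subunit of IL-12 and IL-23, had 286 and 297 normalised tags with LPS, against 83.3 and 99.03 with vehicle (log2 change 1.67 ± 0.35 (SE), adjusted p = 0.0142). Il27, Il1rn (2.81), Il12a (2.02), Csf2, Lif and Tnfsf9 were also called, Il27 with the second largest change of the list at 3.51. Tnf had 535 and 336 normalised tags with LPS, against 145 and 155 with vehicle, and did not pass (log2 change 1.50, adjusted p = 0.124). With the replicate block its change was 1.09 (adjusted p = 0.0169). Il6 was at 131 and 163 normalised tags with LPS, against 98.6 and 84.9 with vehicle (log2 change 0.67, adjusted p = 0.496). The number called was 3 or 4 when LPS replicate 1 or 2 was dropped and 2 or 4 when the PBS2 or PBS6 library was.

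Among chemokines 4 of 17 tested passed, all higher, beside 2.97% of all genes. With the replicate block 11 passed, beside 1020 of all 14691 genes higher. The list median was 1.28, and 17 of 17 changes were above 0, beside 7292 of all 14691. Cxcl10, an interferon-induced ligand of CXCR3, had 748 and 361 normalised tags with LPS, against 8.77 and 16.2 with vehicle (log2 change 5.33 ± 0.54 (SE), adjusted p = 2.48e-04). Ccl5, a chemokine that attracts T cells and monocytes, had 2360.2 and 1152 normalised tags with LPS, against 52.6 and 85.9 with vehicle (log2 change 4.60 ± 0.60 (SE), adjusted p = 9.50e-04). Vehicle was low at both genes, and LPS replicate 1 was the higher of the LPS libraries. Ccl4 (2.66) and Cxcl11 (2.44) were the other genes called. Cxcl2, a neutrophil attractant, had 731 and 1356 normalised tags with LPS, against 409.8 and 412 with vehicle (log2 change 1.27, adjusted p = 0.335). With the replicate block its change was 1.82 (adjusted p = 1.48e-04). Ccl2 and Ccl3, already at 704 ± 53.4 and 819 ± 41.7 normalised tags with vehicle (SD, n = 2), did not pass (adjusted p = 0.380 and 0.175). Leaving out a library gave 3 or 4 when LPS replicate 1 or 2 was dropped and 3 or 4 when the PBS2 or PBS6 library was.

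In the list of NF-κB subunits and regulators 9 of 18 genes rose, beside 2.97% of all genes, and 0 fell (median 1.53). With the block 12 rose, beside 1020 of all 14691 genes. The 9 were the subunit genes Rel (2.01), Nfkb1 (2.70) and Nfkb2 (1.69), the IκB family genes Nfkbia (1.67), Nfkbie (1.91) and Nfkbiz (1.73), and Tnfaip3 (2.57), Birc3 (2.40) and Traf1 (1.39). Nfkbia, which encodes IκBα, had 1466 and 1267 normalised tags with LPS, against 458 and 397 with vehicle (log2 change 1.67 ± 0.30 (SE), adjusted p = 0.00586). Tnfaip3 had 2041 and 1827 normalised tags with LPS, against 364 and 290.0 with vehicle (log2 change 2.57 ± 0.34 (SE), adjusted p = 0.00111). Vehicle already carried p300 at both genes. Tnip1 did not pass, with 1550.0 and 686 normalised tags with LPS, against 178 and 161 with vehicle (log2 change 2.60, adjusted p = 0.0521). With the replicate block its change was 1.94 (adjusted p = 4.31e-05). Tnip3, another A20-binding protein gene, had a change of 0.73 (adjusted p = 0.613), and of 1.27 with the replicate block (adjusted p = 0.00139). The number called was 3 or 6 when LPS replicate 1 or 2 was dropped and 3 or 4 when the PBS2 or PBS6 library was.

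Other feedback inhibitors were called higher in 5 of 20 cases, beside 2.97% of all genes: Socs3, Cish (2.73), Dusp2 (2.57), Peli1 (2.61) and Rcan1 (1.25). The list median was 0.82. With the block 7 were called higher, beside 1020 of all 14691 genes. Socs3 had 3711 and 2219.7 normalised tags with LPS, against 263 and 343 with vehicle (log2 change 3.25 ± 0.34 (SE), adjusted p = 2.79e-04). The RNA-decay genes Zfp36 (tristetraprolin) and Zc3h12a (Regnase-1) and the phosphatase gene Dusp1 did not pass, with changes of 0.50, 0.88 and 0.33. Zc3h12a had an adjusted p = 0.117, and with the replicate block a change of 0.94 (adjusted p = 0.0106). The count for this list was 3 or 4 when LPS replicate 1 or 2 was dropped and 4 or 3 when the PBS2 or PBS6 library was.

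Interferon response genes were called in 12 of 36 cases (median 1.41), all upward, beside 2.97% of all genes called higher. With the block 16 were called, beside 1020 of all 14691 genes higher. Gbp5, a guanylate-binding protein gene, had 1132 and 399 normalised tags with LPS, against 37.3 and 41.4 with vehicle (log2 change 4.06 ± 0.57 (SE), adjusted p = 0.00166), and Rsad2, which encodes the antiviral enzyme viperin, 915 and 479.8 normalised tags with LPS, against 50.4 and 71.7 with vehicle (log2 change 3.44 ± 0.58 (SE), adjusted p = 0.00461). LPS replicate 1 was the higher of the LPS libraries at both. Gbp genes lie in clusters of related copies, so reads could be split among them. Gbp2 (3.77), Isg20 (2.90), Zbp1 (2.41), Mx2 (2.22) and Ifih1 (1.62) were also called, as was Cd274, the gene of PD-L1 (452 and 308 normalised tags with LPS, against 114 and 120.2 with vehicle; log2 change 1.66 ± 0.40 (SE), adjusted p = 0.0290). Irf1, in the same pathway, was at 481 and 190.0 normalised tags with LPS, against 103 and 92.96 with vehicle (log2 change 1.62, adjusted p = 0.122). With the replicate block its change was 1.24 (adjusted p = 0.0227). Irf8, a lineage factor, was at 738 and 462 normalised tags with LPS, against 554 and 522 with vehicle (adjusted p = 0.925). The number called was 1 or 7 when LPS replicate 1 or 2 was dropped and 1 or 4 when the PBS2 or PBS6 library was.

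Effector enzyme genes were called higher in 6 of 14 cases (median 1.91), beside 2.97% of all genes. With the replicate block 10 were called higher, beside 1020 of all 14691 genes. Ptges, which encodes the prostaglandin E synthase, had 373 and 182 normalised tags with LPS, against 0 and 13.1 with vehicle (log2 change 6.12 ± 0.87 (SE), adjusted p = 0.00166), in 1 window. Nos2, the inducible nitric oxide synthase gene, had 569.7 and 387 normalised tags with LPS, against 46.02 and 41.4 with vehicle (log2 change 3.40 ± 0.48 (SE), adjusted p = 0.00166), and Acod1 had 333 and 199.6 normalised tags with LPS, against 19.7 and 20.2 with vehicle (log2 change 3.63 ± 0.52 (SE), adjusted p = 0.00166). Vehicle was near 0 at Ptges and low at the other genes. Ass1 (3.07), an arginine-recycling enzyme, Sod2 (2.70), the mitochondrial superoxide dismutase, and Slc7a11 (1.90), the cystine transporter, were the others. Ptgs2, the cyclooxygenase-2 gene, was measured in 1 window with 8.30 and 41.01 normalised tags with LPS, against 0 and 2.02 with vehicle (log2 change 3.51, adjusted p = 0.0937). With the replicate block its change was 3.85 (adjusted p = 0.00994). Hmox1, the heme oxygenase gene, was at 292 and 306 normalised tags with LPS, against 265 and 307 with vehicle (adjusted p = 0.953). Leaving out any 1 of the 4 libraries left 5 called.

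**Figure D5:**
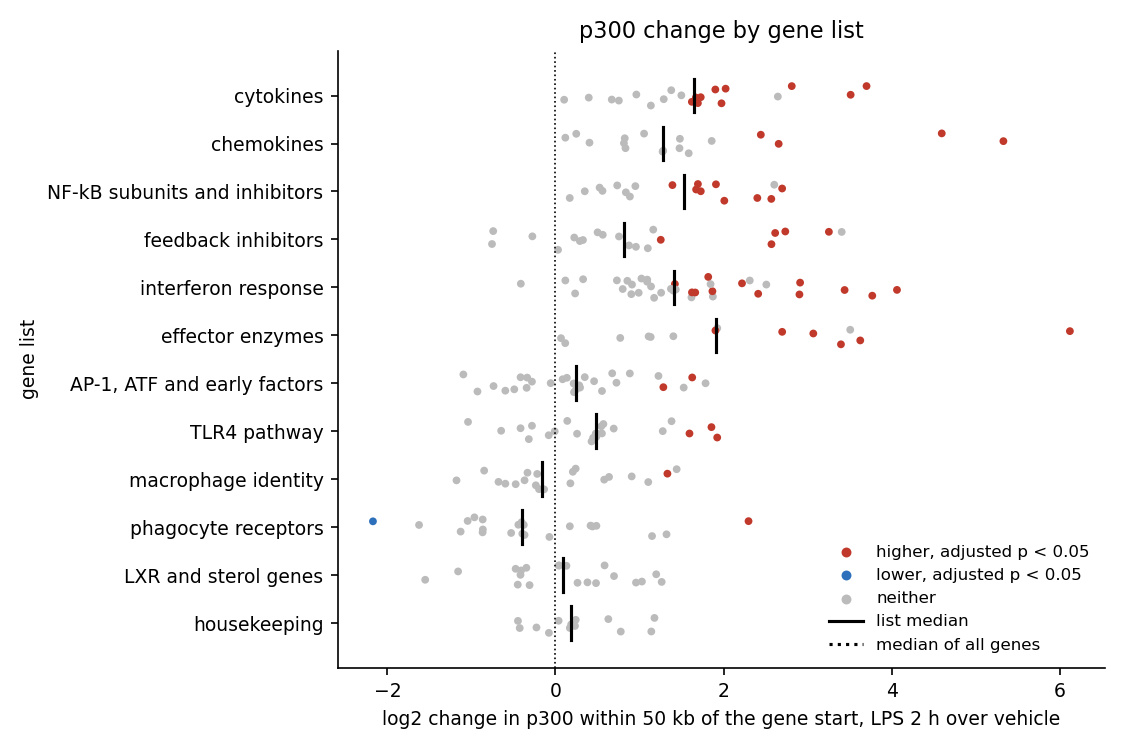
Each point is 1 gene, placed by its log2 change in p300 summed within 50 kb of its start (LPS 2 h over vehicle), by gene list; red and blue points passed the test upward and downward, black bars are list medians and the dotted line is the median of all genes. Cytokine, chemokine, NF-κB, interferon and effector enzyme lists lie to the right of 0, with medians of 1.28 to 1.91, and macrophage identity, sterol and housekeeping lists lie around it.

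Of 29 AP-1, ATF and early factors tested, 2 rose, Batf (1.63) and Junb (1.28). That is 6.90%, beside 2.97% of all genes, and a count this small is no result about the list. The list median was 0.25, and with the replicate block 5 rose. Junb had 770.1 and 606 normalised tags with LPS, against 248 and 316 with vehicle (log2 change 1.28 ± 0.30 (SE), adjusted p = 0.0276). At the immediate early genes Fos and Egr3 both LPS libraries were below both vehicle libraries. Of the 29 genes, 7 lay below both vehicle libraries and 11 above both, beside 3376 and 3623 of all 14691 genes. Fos had 866 and 606 normalised tags with LPS, against 1100.1 and 1324 with vehicle (log2 change -0.74, adjusted p = 0.557), and Egr3 had 293 and 357 normalised tags with LPS, against 756 and 634 with vehicle (-1.10, adjusted p = 0.248). Neither passed, and at Fosl2 the change was 0.25 (adjusted p = 0.892). In the TLR4 pathway, Tlr2 (1.59), Irak2 (1.86) and Tab2 (1.92) were called higher among 24 tested (median 0.48). That is 12.5%, beside 2.97% of all genes. With the block Ikbke was also called, with a change of 1.01 (adjusted p = 0.00787), against 1.28 without it (adjusted p = 0.0740). Tlr2 stood at 1326 and 1026 normalised tags with LPS, against 362 and 411 with vehicle. Cd14, the LPS co-receptor gene, was at 614 and 697 normalised tags with LPS, against 425 and 472 with vehicle (adjusted p = 0.555). For the early factors the number called was 0 or 1 when LPS replicate 1 or 2 was dropped and 0 or 0 when the PBS2 or PBS6 library was, and for the TLR4 pathway 0 or 3 when LPS replicate 1 or 2 was dropped and 0 or 1 when the PBS2 or PBS6 library was.

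In each of the lists of macrophage identity, phagocyte receptor and sterol genes, at most 1 gene was called in either direction without the block. Of all genes 2.97% were higher and 0.756% lower. The 1 phagocyte receptor gene that fell is 4.35% of its list, and counts this small are no result about these lists. Of 20 identity genes 1 rose, Zeb2 (1.33), and of 23 phagocyte receptor genes 1 rose, the scavenger receptor gene Marco (2.30), and 1 fell, Gas6 (-2.17), which encodes a ligand of the AXL and MERTK receptors; the list medians were -0.17 and -0.40. Csf1r, the M-CSF receptor gene, was at 494 and 313 normalised tags with LPS, against 519 and 402 with vehicle (adjusted p = 0.856), and Cx3cr1, the fractalkine receptor gene, at 303 and 368 normalised tags with LPS, against 471 and 285 with vehicle (adjusted p = 0.920). Their LPS and vehicle values overlap. With the replicate block 2 identity genes rose, Zeb2 and Spi1 (adjusted p = 0.0811, and 0.00638 with the replicate block), and 1 fell, Mertk (adjusted p = 0.704, and 0.00154 with the replicate block). With it 3 phagocyte receptor genes rose, Marco, Fcgr2b (adjusted p = 0.0740, and 0.00989 with the replicate block) and Msr1 (adjusted p = 0.0772, and 6.75e-04 with the replicate block), and 6 fell, those that fell being Gas6, P2ry12 (-1.62), Tgfbr1 (-1.04), Mrc1 (-0.96), S1pr1 (-0.87) and Trem2 (-0.86), and for Trem2 the adjusted p was 0.422 without the block and 0.00762 with it. Among all 14691 genes tested, 1020 rose and 554 fell with the block. No gene of 20 in the sterol list was called by limma without the block (median 0.09). With the block 2 were lower, Apoe (adjusted p = 0.0722, and 0.0276 with the replicate block) and Arl4c (adjusted p = 0.144, and 0.0468 with the replicate block), DESeq2 called 1 lower, and limma on only the 4 libraries called 1 higher and 1 lower. Abca1, the cholesterol exporter gene, was at 1394 and 1077 normalised tags with LPS, against 1139.6 and 1249 with vehicle (adjusted p = 0.978). Among its 15 windows 1 was called higher and 2 lower, beside 4.07% and 0.864% of all windows tested. None of 13 housekeeping genes was called (median 0.19; 2 higher with the block). Without LPS replicate 2 or the PBS2 library no phagocyte receptor gene was called (1 higher without the PBS6 library; 1 higher and 1 lower without LPS replicate 1), and without any 1 of the 4 libraries no identity gene. The identity median was 0.22 without LPS replicate 2 and 0.15 without the PBS2 library.

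Genes were also ranked by size of change, among those that passed the test with both LPS libraries on the same side of both vehicle libraries. Genes that did not pass were not ranked. The 10 with the largest rise were Gm19395, Ptges, Spint2 (a serine protease inhibitor), 4933402J15Rik, Mir155, Ifi205, Cxcl10, Vmn1r39, Bcl2a1a and Mir6978. Mir155, the annotated locus of the inflammation-induced microRNA miR-155, had 67.8 and 159.9 normalised tags with LPS, against 2.19 and 0 with vehicle (log2 change 5.88 ± 0.80 (SE), adjusted p = 0.00141) over 3 tested windows, of which 2 were called. Ifi205, of the interferon-inducible p200 family, had 321 and 72.4 normalised tags with LPS, against 4.38 and 1.01 with vehicle (log2 change 5.55 ± 0.85 (SE), adjusted p = 0.00239) in 1 window. At both loci vehicle held almost no p300. The 6 with the largest fall, chosen by the same rule, were Slc7a13, 4930486L24Rik, Mir223, Retnla, Hpgd and Zfyve28. Mir223, the locus of a myeloid microRNA, had 16.6 and 12.3 normalised tags with LPS, against 228 and 121 with vehicle (log2 change -3.45 ± 0.50 (SE), adjusted p = 0.00176). Hpgd, whose product degrades prostaglandin E2, had 22.1 and 31.4 normalised tags with LPS, against 307 and 246 with vehicle (log2 change -3.33 ± 0.58 (SE), adjusted p = 0.00507), and Zfyve28, a FYVE-domain protein gene, 40.1 and 57.4 normalised tags with LPS, against 548 and 408 with vehicle (log2 change -3.27 ± 0.38 (SE), adjusted p = 4.81e-04). LPS libraries were the lower ones at all 3 loci, which the choice of these genes required. Retnla, a marker of alternatively activated macrophages, had few tags, with 2.77 and 1.37 normalised tags with LPS, against 24.1 and 35.4 with vehicle (adjusted p = 0.0422), and lost its call without any 1 of the 4 libraries. Spint2 and 4933402J15Rik lost theirs without LPS replicate 1 or the PBS2 library, Mir6978 without LPS replicate 1 or either vehicle library, Vmn1r39 without LPS replicate 1 or the PBS6 library, Ifi205 without LPS replicate 1, Hpgd without LPS replicate 1 or the PBS2 library, and 4930486L24Rik without any 1 of the 4.

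Between 2 h and 6 h of LPS no window passed the threshold by limma or edgeR (0 of 52527 at an adjusted p under 0.05; 2856 and 2465 at an unadjusted p under 0.05); with the replicate block 48 were higher and 29 lower at 2 h. The windows that rose at 2 h had a median level of 4.67 normalised tags with vehicle, 71.2 after 2 h of LPS and 41.04 after 6 h. Those that fell had 76.5 with vehicle, 11.04 after 2 h of LPS and 20.9 after 6 h. These windows were chosen on the 2 h libraries, so their 2 h levels are a description and the difference from 6 h cannot be read from them. At the Socs3 window the 6 h libraries held 381 and 334 normalised tags, at Lmo4 359 and 166, and at Slc7a13 11.1 and 6.04. All 3 remained on the same side of the vehicle libraries as at 2 h.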

How the data were processed

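Per the submitters' processing notes, reads were processed with Bowtie2, HOMER and DESeq2 on mm10; their versions are not stated. The deposited tables hold signal made by the authors with HOMER annotatePeaks.pl, per the file headers: tags in windows of 200 bp (p300) or 1000 bp (H3K27ac) around 97113 merged ATAC peaks, scaled to 10000000 mapped tags per library, with the nearest gene and annotation. Multiplying each value by its library total gave whole tags (within 0.05) for 100% of values. A further 9 value columns could not be tied to a sample and were left out.

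Windows were filtered with edgeR's filterByExpr. Values were divided by tags in the tested windows times TMM factors, put back on the scale of the deposited signal, and tested as log2(value + 1) with limma 3.58.1 (trend) in a group-means model of 14 p300 libraries (7 residual degrees of freedom, vehicle as 1 group) or 15 H3K27ac libraries; p-values are two-sided and Benjamini-Hochberg adjusted over all windows or genes, with a threshold of 0.05. The pseudocount of 1 makes fold changes of low windows too small. Bounds on a fold use tags summed per group, with 3 tags in place of 0, and cover counting error only. Whole tags were also tested with edgeR 4.0.16 and DESeq2 1.42.0. The code was tested on simulated data.

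Same-numbered libraries deviated together from their group means (correlations of 0.218 to 0.429 over 6 p300 groups and 0.445 to 0.670 over 7 H3K27ac groups), so the numbers pair the samples. The fit with the replicate number as a block is given for total counts, list counts and genes whose call it changes. Overlaps with peaks, motifs, H3K27ac and 3SL calls, and windows called per gene, are given without it only. A p-value with the block belongs to that fit's own change, which can differ from the change without it. Vehicle has only replicate 2, so a difference between replicate numbers enters the p300 change without the block. Replicates differed by more than counting noise (chi-square per degree of freedom 8.81 for the LPS pair, 2.79 for vehicle, over windows of at least 20 tags). Genes named are the 12 windows and 10 genes with the largest rise and the 8 windows and 6 genes with the largest fall. These were ranked only among those that passed the test with both LPS libraries on the same side of both vehicle libraries. Also named are 4 genes with the highest level in each of 12 lists, and 20 chosen genes. Others were named after their values were seen. The comparison, lists and motifs were chosen with earlier results of these data known. Window sequences were read from RefSeq's GRCm38.p6, the assembly of mm10. The deposited p65 list was planned for the overlap but not used: 329 of its 41220 peaks end past the mm10 chromosomes, and degenerate κB letters were in 1.03% of its peaks and 0.765% of windows 1 kb away.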

Additional observations from a re-analysis of the deposited data

How the results depend on the processing

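Windows called for p300 (2590) numbered 68 on the authors' scaling, 5513 with the replicate block, 5152 with edgeR and the block, and 664 to 1491 with 1 library left out. Genes called (547) numbered 0, 1574 and 1527 in the same settings, 107 to 263 with 1 library left out, 986 with only the 4 libraries in the fit, and 309 with windows within 10 kb. H3K27ac windows called (3980) numbered 2639 on the authors' scaling, 17805 with the block and 502 to 1701 with 1 library left out. Between 2 h and 6 h of LPS limma called 0 windows (2856 at an unadjusted p under 0.05), 77 with the block, and 0 with each library left out. The contrast of 3SL with LPS over 3SL, added after seeing the data, gave 944, and 3686 with the block. Other settings run (pseudocounts of 5 and 0.5, no filter, other scalings, edgeR and DESeq2 without the block, all annotated windows) kept these counts within 1.5 times. Scaling by tags in windows without TMM factors moved the median window by -0.20 and the split to 1705 higher and 651 lower. An overlap of at least 100 bp gave shares of 43.7%, 22.004% and 22.4% of windows that rose for p300, LXR and SREBP peaks, and 77.97%, 71.4% and 69.6% of those that fell. No named window or gene with a call changed sign in any setting; 6 of 20 named windows and 32 of 32 named genes with a call lost it in at least 1 setting, 5 and 17 of them in a setting other than the authors' scaling. No named call was lost with the replicate block. The overlap with p65 peaks was not run. The cause of these differences was not tested.

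Vehicle depth limits the windows: PBS2 held 3199270 tags and had none in 28160 of 97113 windows, so a value of 0 there does not show absence.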
